A study of Mus musculus with 120 samples.

Results

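Mouse embryonic stem cells that lack an enhancer called Enh9E were followed from the undifferentiated state (day 0) to neural progenitors (day 8). All 6 libraries described here carry the deletion, made with CRISPR-Cas9 in E14/TG2A cells, a line widely used for embryonic stem cell work. There were 3 libraries of these KO cells at each day. Cells of the same line labelled WT gave 2 libraries at day 0 and 2 at day 8, which serve as the comparison. The labels do not say whether the WT libraries came from the passage in which the deletion was made, so the deletion and other differences between the cell stocks cannot be told apart. PolyA RNA of whole cultures was counted per gene. Of 23154 genes in the table, 13752 had 10 or more counts in at least 3 of the 6 KO libraries, and these were tested. The series holds 120 samples, mostly from dissected gastrulating embryos, which were not analysed here. Where Enh9E lies and which gene it acts on is not in the labels, and they do not say whether the KO libraries of a day came from separate clones or separate cultures. The p-values therefore measure the spread between these libraries, which may be technical.

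Embryonic stem cells are held in the naive state by a network of transcription factors built around Pou5f1, Sox2 and Nanog. When the signals that maintain this network are withdrawn, cells pass through an epiblast-like state and, unless redirected, many take on a neural fate marked by Sox1 and Pax6. Neural progenitors then use Notch signalling to hold back proneural factors, so that only some cells leave the cycle and become neurons, and signals such as Sonic hedgehog, Wnt, BMP and retinoic acid give them a position along the neural tube.

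Total counts ran from 6.97 to 13.2 M in the KO libraries and from 5.96 to 8.67 M in the WT libraries. Levels below are counts of a gene per M of TMM-scaled total counts (CPM), given for replicates 1, 2 and 3 in that order, and a log2 fold change is day 8 over day 0 with its standard error from the fit. Since these are bulk cultures, fewer cells of a type and less RNA per cell cannot be told apart. The day 0 libraries resembled each other closely, with Pearson correlations of log2 CPM of 0.983 to 0.990 between pairs, and the day 8 libraries less so, with 0.948 to 0.976. Replicate 1 at day 8 had higher levels of core stem cell genes than the others. Its Pou5f1 was 76.5 CPM against 29.0 and 21.1 CPM in replicates 2 and 3, and its Nanog was 64.4 CPM against 10.0 and 4.89 CPM. Replicate 2 at day 8 was low in Sonic hedgehog targets and in ventral neural tube genes, and replicate 3 was nearly without the maternally expressed imprinted RNAs Meg3 and Rian at both days. Values with and without these libraries are given where a result turns on them.

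At an adjusted p under 0.05, 4670 genes rose (34.0% of those tested) and 4382 fell (31.9%), so 65.8% of all tested genes were called in one direction or the other. The KO groups did not overlap in 69.9% of tested genes. The median log2 fold change of all tested genes was 0.04. Of the genes called, 1358 rose and 1212 fell by over 4-fold, and 248 rose and 150 fell by over 32-fold. Leaving out day 8 replicate 1 gave 4917 rises and 4677 falls, leaving out replicate 2 gave 4505 and 4239, and leaving out replicate 3 gave 4290 and 3970. Because nearly 2 in 3 genes were called, the count of called members in any gene group below has to be read against these shares.

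**Figure D1:**
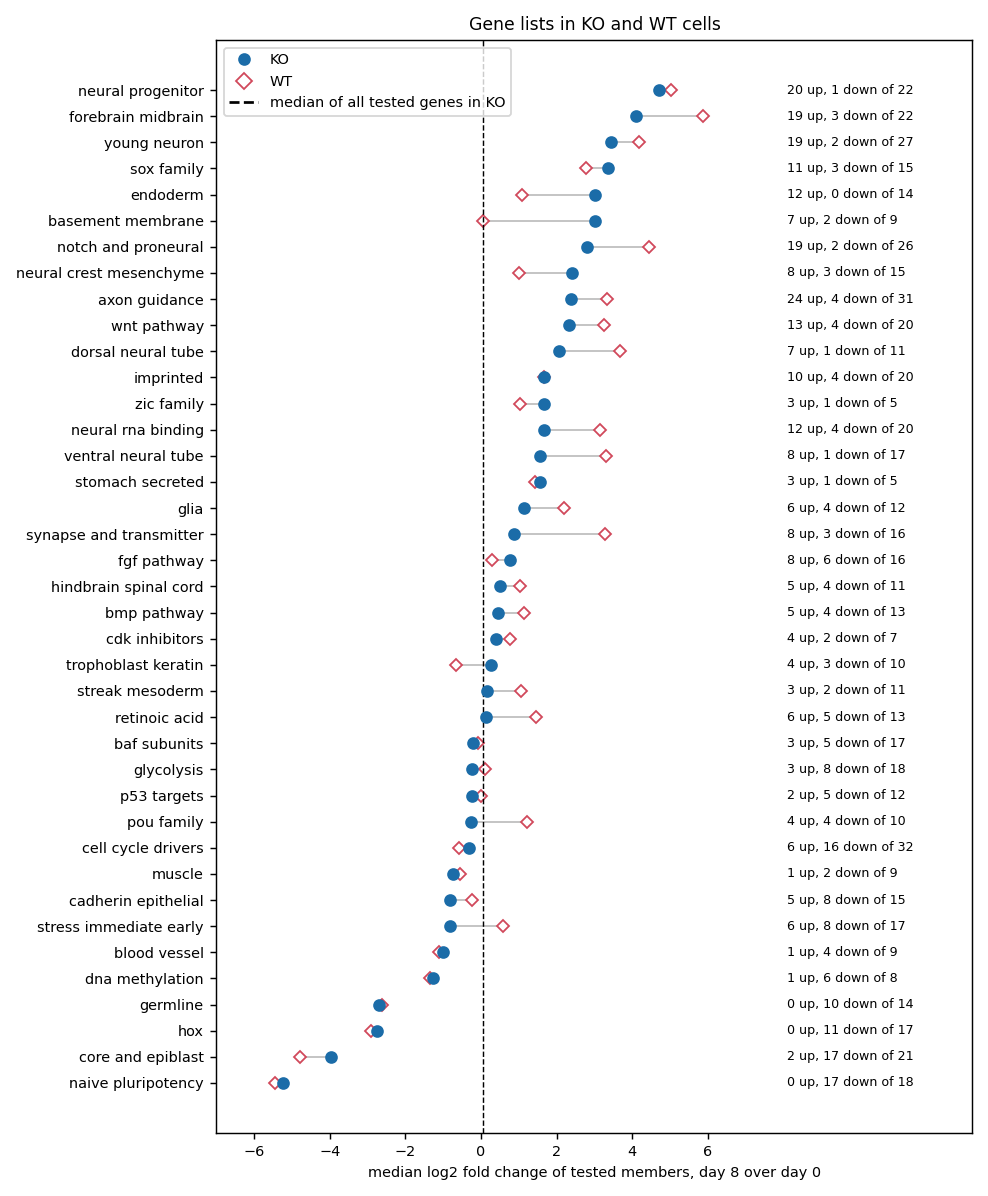
Median log2 fold change from day 0 to day 8 of the tested members of each gene list, in KO cells (filled circles) and WT cells (open diamonds), with the number of KO members that rose and fell at the right. The dashed line is the median of all tested genes in KO cells, 0.04. Neural progenitor genes (4.70) stand at the top and naive pluripotency genes (-5.23) at the bottom.

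Genes of naive pluripotency fell almost without exception. Of 18 tested, 17 fell and none rose, with a median log2 fold change of -5.23, and the summed level of the group was 6849.7 to 7330.4 CPM at day 0 and 261 to 384 CPM at day 8. Zfp42 (Rex1), a zinc finger protein used as the standard mark of naive cells, had 822, 765 and 790.4 CPM at day 0 and 28.3, 8.43 and 7.69 CPM at day 8 (log2 fold change -5.75 ± 0.51, adjusted p = 3.0e-06). Esrrb, a nuclear receptor that sustains self-renewal, had 899.7, 868 and 885 CPM at day 0 and 16.6, 1.71 and 0.898 CPM at day 8 (log2 fold change -7.12 ± 0.78, adjusted p = 1.4e-05). Both were at least an order of magnitude lower in every day 8 library than in any day 0 library. Tfcp2l1, another factor of the naive network, fell from 792, 689 and 786 CPM to 11.7, 3.51 and 3.69 CPM (log2 fold change -6.91 ± 0.43). Tbx3, a T-box factor of the same network, fell from 532, 535 and 532 CPM to 8.51, 10 and 12.6 CPM (log2 fold change -5.68 ± 0.22). Klf4, a reprogramming factor, had 581, 588 and 624 CPM at day 0 and 48.9, 96.6 and 133 CPM at day 8 (log2 fold change -2.69 ± 0.33, adjusted p = 3.6e-05). Klf5, a related factor, had 258, 289 and 319.8 CPM at day 0 and 30, 23.4 and 43.9 CPM at day 8 (log2 fold change -3.15 ± 0.21, adjusted p = 4.6e-07). Dppa3 (Stella), a marker of a subset of naive cells and of the germline, was already low and was not called, with 3.56, 1.13 and 1.15 CPM at day 0 and 1.68, 1.51 and 0.599 CPM at day 8 (adjusted p = 0.46).

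The core factors and epiblast genes followed, with 17 of 21 lower, 2 higher and a median of -3.98. Pou5f1 (Oct4) had 1726, 1700.0 and 1689 CPM at day 0 and 76.5, 29 and 21.1 CPM at day 8 (log2 fold change -5.34 ± 0.50, adjusted p = 4.9e-06). Nanog had 1282, 1147 and 1164 CPM at day 0 and 64.4, 10 and 4.89 CPM at day 8 (log2 fold change -5.50 ± 0.79, adjusted p = 1.1e-04). In both genes the day 8 libraries were far below the day 0 libraries, and replicate 1 was the highest at day 8. L1td1, an RNA-binding protein of stem cells, fell from 534, 563 and 548 CPM to 26.2, 8.33 and 8.09 CPM. Nodal, the ligand that maintains the epiblast, fell from 95.8, 93.8 and 89.5 CPM to 3.36, 0.502 and 0.599 CPM, and the forkhead factor Foxd3 from 112, 87.6 and 78.1 CPM to 1.68, 1.0 and 0.599 CPM. Sox2, which belongs to both the pluripotency and the neural network, fell as well, with 581, 550.3 and 566 CPM at day 0 and 372, 253 and 318 CPM at day 8 (log2 fold change -0.85 ± 0.19, adjusted p = 0.0025). The 2 genes of the group that rose were Otx2 and Fgf5. Otx2, a homeobox factor of the epiblast and later of the forebrain and midbrain, had 6.39, 9.47 and 12.2 CPM at day 0 and 155, 59.2 and 78.3 CPM at day 8 (log2 fold change 3.35 ± 0.46, adjusted p = 8.4e-05). Fgf5, the classical mark of the postimplantation epiblast, was not counted in any KO day 0 library and reached 7.15, 3.92 and 2.5 CPM at day 8, at least 42.7-fold higher over the group (adjusted p = 6.7e-05). Lin28a, an RNA-binding protein that blocks let-7 maturation, was not called (84.8, 163 and 138 CPM at day 0 and 202, 124 and 149 CPM at day 8, adjusted p = 0.32).

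Neural progenitor genes had the highest median of the 38 gene lists, 4.70, with 20 of 22 higher and 1 (Sox2) lower. These lists were chosen with earlier results of these data known, so their order is a description. The summed level of the neural progenitor genes was 857 to 868 CPM at day 0 and 2644 to 3524 CPM at day 8. Sox1, the earliest marker of neuroectoderm, had 10.8, 12.7 and 23 CPM at day 0 and 138, 127 and 133 CPM at day 8 (log2 fold change 3.07 ± 0.38, adjusted p = 4.0e-05). Pax6, a paired homeobox factor of neural progenitors, had 0.891, 0.451 and 0.307 CPM at day 0 and 102, 103 and 149 CPM at day 8 (log2 fold change 7.85 ± 0.42, adjusted p = 1.1e-07). Nes, the intermediate filament nestin, had 13.4, 12.6 and 12.8 CPM at day 0 and 133, 144 and 186 CPM at day 8 (log2 fold change 3.58 ± 0.20, adjusted p = 1.9e-07). For each of these 3 defining markers, all day 8 libraries lay above all day 0 libraries, and the day 8 libraries were close to each other. Prom1 (CD133), a membrane protein of progenitor cells, rose from 2.82, 3.04 and 2.53 CPM to 139, 128 and 123 CPM (log2 fold change 5.54 ± 0.18, adjusted p = 1.4e-08). Zic1, a zinc finger factor of the dorsal neural plate, rose from 0.149, 0.451 and 0.383 CPM to 108, 62.4 and 100.1 CPM (log2 fold change 7.96 ± 0.39). Hes1, a transcriptional repressor that stem cells also express, was not called (96.1, 116 and 121 CPM at day 0 and 77, 122 and 92.4 CPM at day 8, adjusted p = 0.51).

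**Figure D2:**
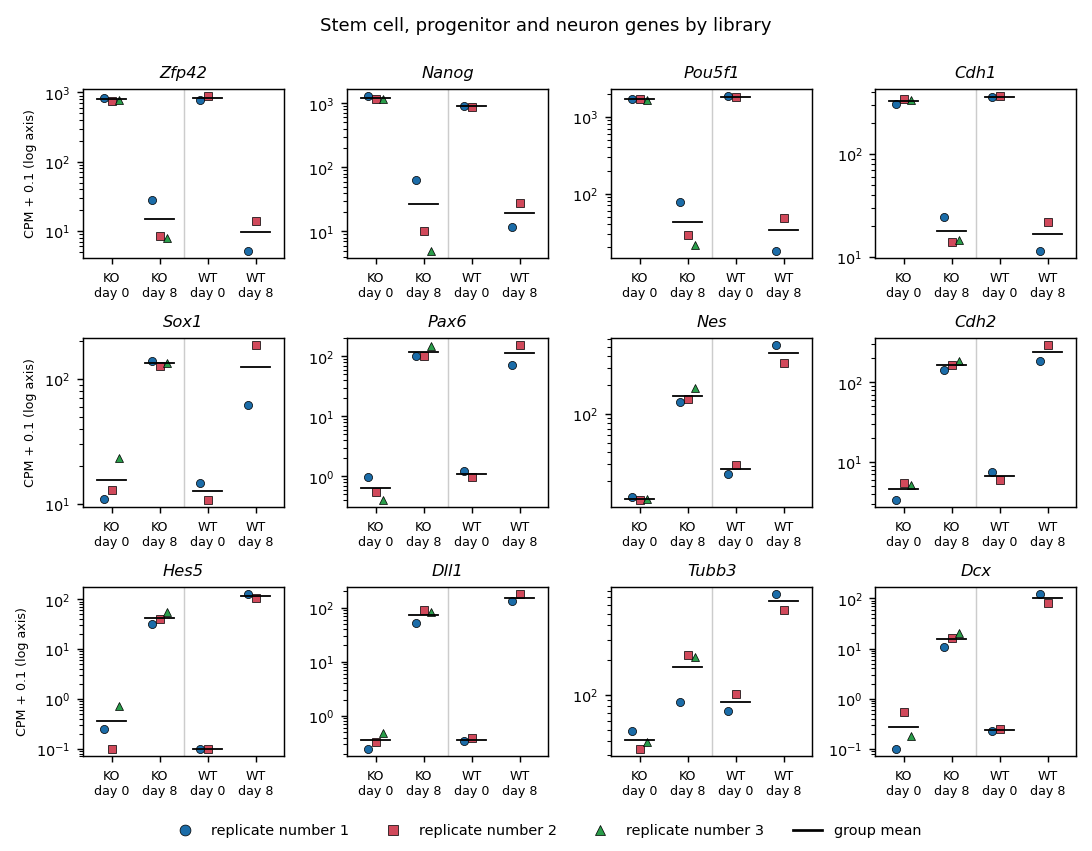
CPM plus 0.1 on a log axis in every library, by genotype and day, for 4 stem cell genes, 4 progenitor genes, 2 Notch pathway genes and 2 neuron genes. Points are libraries, coloured by replicate number, and bars are group means. In KO cells the stem cell genes of the top row fell and the other genes rose in all 3 libraries. The WT day 8 libraries were higher than the KO day 8 libraries for several genes, among them Nes, Hes5, Tubb3 and Dcx.

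Of 26 tested genes of Notch signalling and of the proneural factors it controls, 19 rose and 2 fell (median 2.80). The ligand Dll1 had 0.149, 0.225 and 0.383 CPM at day 0 and 52.2, 89.3 and 81.1 CPM at day 8 (log2 fold change 7.99 ± 0.35, adjusted p = 4.2e-08). Nrarp, a feedback inhibitor that the pathway induces, had 3.56, 7.33 and 6.44 CPM at day 0 and 102, 122 and 131 CPM at day 8 (log2 fold change 4.32 ± 0.29, adjusted p = 5.1e-07). Insm1, a zinc finger factor of newborn neurons, was not counted at day 0 and had 21, 25.4 and 34.6 CPM at day 8, at least 259-fold higher. The receptor Notch1 was not called, with 44.9, 46 and 54.4 CPM at day 0 and 63.3, 39.6 and 56.7 CPM at day 8 (adjusted p = 0.53). The ligand Jag2 fell slightly, with 30.3, 26.6 and 24.8 CPM at day 0 and 23.1, 10.3 and 11.2 CPM at day 8 (log2 fold change -0.87 ± 0.27, adjusted p = 0.014). It was no longer called without day 8 replicate 3 (adjusted p = 0.06).

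Hes5, the repressor most directly induced by Notch in neural progenitors, had 0.149, 0 and 0.613 CPM at day 0 and 31.6, 39.4 and 55.3 CPM at day 8 (log2 fold change 7.03 ± 0.47, adjusted p = 9.5e-07). All day 8 libraries were above all day 0 libraries. Its promoter is shown because the binding protein of the pathway, RBPJ, is known to act on the sequence GTGGGAA, and the capitals mark matches to it on either strand. The window covers the 250 bases before the RefSeq start (GRCm38.p6, chr4:154960673-154960922, plus strand). It held 2 matches, 1 on each strand, beginning 226 and 83 bases before the start, and 5.42% of 32851 promoters of the same kind held at least 1. A match is a description of the letters only.
Hes5: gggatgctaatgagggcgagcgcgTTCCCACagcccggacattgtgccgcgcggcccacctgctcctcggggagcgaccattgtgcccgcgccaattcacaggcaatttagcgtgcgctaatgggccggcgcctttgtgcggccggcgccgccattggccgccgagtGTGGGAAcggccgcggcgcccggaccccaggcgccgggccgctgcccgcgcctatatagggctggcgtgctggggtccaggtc

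Of 27 tested genes of young neurons, 19 rose and 2 fell (median 3.43), and their summed level was 344 to 409 CPM at day 0 and 596 to 1070.4 CPM at day 8. Tubb3, the neuronal beta tubulin, had 48.6, 34.2 and 38.7 CPM at day 0 and 86.8, 220.1 and 214 CPM at day 8 (log2 fold change 2.10 ± 0.32, adjusted p = 1.6e-04). Dcx, doublecortin of migrating neurons, had 0, 0.451 and 0.0767 CPM at day 0 and 10.5, 16.3 and 20.4 CPM at day 8 (log2 fold change 6.38 ± 0.52, adjusted p = 1.7e-06). Both were higher in every day 8 library than in any day 0 library, and replicate 1 was the lowest at day 8. The microtubule proteins Map2 (0.594, 0.789 and 0.69 to 40.7, 37.9 and 55.9 CPM) and Crmp1 (2.82, 2.71 and 2.84 to 59.6, 73.8 and 88.4 CPM) rose with log2 fold changes of 5.98 ± 0.32 and 4.72 ± 0.23. Dpysl3, a growth cone protein, rose with a log2 fold change of 3.43 ± 0.26. The members that fell were Mapt and Stmn2, which stem cells of this line already expressed. Mapt, the microtubule protein tau, had 56.6, 63.5 and 68.8 CPM at day 0 and 4.62, 13.7 and 9.88 CPM at day 8 (log2 fold change -2.74 ± 0.34, adjusted p = 3.6e-05). Stmn2, a stathmin of growing axons, had 122, 110.4 and 107 CPM at day 0 and 28.1, 67.9 and 69.1 CPM at day 8 (log2 fold change -1.04 ± 0.34, adjusted p = 0.018). Its fall was no longer called without day 0 replicate 1 (adjusted p = 0.052). Nefl, a neurofilament subunit, was not called (70.4, 32.5 and 35.6 CPM at day 0 and 43.6, 62.2 and 65.7 CPM at day 8, adjusted p = 0.58).

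Of 16 tested synaptic and transmitter genes, 8 rose and 3 fell (median 0.86), and 7 of the 23 members in the table did not reach the count minimum. Syp, a synaptic vesicle protein, had 0.891, 0.789 and 0.92 CPM at day 0 and 11.2, 23.1 and 16.6 CPM at day 8 (log2 fold change 4.26 ± 0.36, adjusted p = 2.1e-06). Snap25, a protein of vesicle fusion, had 0.297, 0.451 and 0.153 CPM at day 0 and 8.72, 5.92 and 8.98 CPM at day 8 (log2 fold change 4.73 ± 0.59, adjusted p = 3.9e-05). Syn1, synapsin, fell from 9.21, 8.57 and 10.4 CPM to 4.52, 3.11 and 6.39 CPM (log2 fold change -1.01 ± 0.27, adjusted p = 0.0062). Slc17a7, a glutamate transporter of vesicles, fell from 2.08, 4.17 and 4.52 CPM to 0.736, 1.31 and 0.0998 CPM (log2 fold change -2.33 ± 0.64, adjusted p = 0.0075). Vamp2, another fusion protein, was not called (adjusted p = 0.92). Of 20 neuronal RNA-binding proteins, 12 rose and 4 fell (median 1.66). Ptbp2, the splicing repressor that replaces Ptbp1 as neurons form, had 14.4, 12.2 and 8.28 CPM at day 0 and 145, 229 and 227 CPM at day 8 (log2 fold change 4.13 ± 0.24, adjusted p = 2.0e-07). Ptbp1 itself fell from 631, 664 and 682 CPM to 390.1, 308 and 363 CPM (log2 fold change -0.90 ± 0.13, adjusted p = 1.4e-04). Elavl4 (HuD), an RNA-stabilising protein of neurons, rose from 0.891, 0.564 and 0.843 CPM to 19.8, 43.1 and 35.7 CPM (log2 fold change 5.40 ± 0.39). Lin28b, the relative of Lin28a, rose from 6.68, 7.89 and 10.4 CPM to 157, 132 and 147 CPM (log2 fold change 4.10 ± 0.26). Rbfox2, a splicing factor already present in stem cells, fell (log2 fold change -1.06 ± 0.15, adjusted p = 7.9e-05). Nova2, another splicing factor, was not called (13.5, 29.3 and 30 CPM at day 0 and 15, 17.6 and 29.7 CPM at day 8).

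Genes of anterior positions along the neural tube mostly rose, and of the Hox genes that could be tested, which mark posterior positions, none did. Of 22 tested forebrain and midbrain genes, 19 rose and 3 fell (median 4.10), against 5 rises and 4 falls among 11 hindbrain and spinal cord genes and 0 rises and 11 falls among 17 tested Hox genes. The other 22 of 39 Hox genes were below the count minimum, and some of them had more counts at day 8, such as Hoxb3 with 1 count at day 0 and 50 at day 8 and Hoxb8 with 3 and 32. With no filter or without day 0 replicate 1, 2 Hox genes were called higher, and 1 with edgeR's own filter or without day 8 replicate 1. Fezf1 and Fezf2, zinc finger factors of the forebrain, were not counted in any KO day 0 library. At day 8 Fezf1 had 96.8, 78.9 and 100.4 CPM, at least 878-fold higher, and Fezf2 had 87.2, 42.1 and 33.6 CPM, at least 514-fold higher. Nr2e1 (Tlx), an orphan nuclear receptor of forebrain stem cells, had 1 count in all at day 0 and 52, 43.1 and 57.6 CPM at day 8, a ratio of 1458-fold (95% counting interval 261 to 57625). The homeobox factor Lhx5 had 0.743, 1.47 and 1.38 CPM at day 0 and 99.7, 33.1 and 56.9 CPM at day 8 (log2 fold change 5.65 ± 0.48, adjusted p = 2.4e-06). The members that fell included En2, a midbrain homeobox factor (23.2, 15.1 and 12.7 CPM at day 0 and 5.25, 3.11 and 5.29 CPM at day 8, log2 fold change -1.89 ± 0.42, adjusted p = 0.0022). Gata2, a zinc finger factor, fell too (20.9, 14.8 and 15.9 CPM at day 0 and 1.47, 1.91 and 1.1 CPM at day 8, log2 fold change -3.51 ± 0.70, adjusted p = 0.0011).

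Lhx2, a factor of the eye and cortex, differed severalfold between the day 8 libraries. Lhx2 had 4.31, 2.71 and 3.83 CPM at day 0 and 30.6, 134 and 76.8 CPM at day 8 (log2 fold change 4.48 ± 0.90, adjusted p = 0.0011). Replicate 2 was the highest and replicate 1 the lowest at day 8. The WT day 8 libraries also differed, with 15.2 and 266 CPM. Among posterior genes, Cdx1, a caudal homeobox factor, fell from 85.8, 54.6 and 53.9 CPM to 2 counts over the 3 day 8 libraries, a ratio of 909-fold (95% counting interval 251 to 7508). Gbx2, a homeobox factor of naive cells and of the anterior hindbrain, fell from 28.2, 23.2 and 17.7 CPM to 4.73, 3.71 and 2.5 CPM (log2 fold change -2.65 ± 0.34, adjusted p = 5.2e-05). Pbx3, a cofactor of Hox proteins, rose from 11.1, 11.6 and 12.1 CPM to 37.2, 32.2 and 34.5 CPM (log2 fold change 1.57 ± 0.15, adjusted p = 5.5e-06). Among the Hox genes that fell were Hoxc13 (16.2, 8.57 and 6.82 to 0.736, 0.904 and 1.2 CPM, log2 fold change -3.44 ± 0.44, adjusted p = 7.0e-05) and Hoxc4 (3.42, 3.49 and 3.6 to 0.21, 0.201 and 0.699 CPM). Hoxc12 also fell (4.01, 3.49 and 1.46 CPM to no counts at day 8, at least 26.4-fold lower). The summed level of the Hox list was 46.8 to 123 CPM at day 0 and 9.98 to 43 CPM at day 8.

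Of 11 tested dorsal genes of the neural tube, 7 rose and 1 fell (Wnt3a, a dorsal midline ligand, 4.46, 4.51 and 3.6 to 0.42, 1.2 and 0.898 CPM), with a median of 2.07. Of 17 ventral genes, 8 rose and 1 fell, with a median of 1.56. Day 8 replicate 2 was low in several ventral genes. Shh, the ventral morphogen, had 0.446, 0.113 and 0.307 CPM at day 0 and 21.5, 2.11 and 12.6 CPM at day 8 (log2 fold change 5.36 ± 1.0, adjusted p = 7.0e-04). Olig2, a bHLH factor of motor neuron progenitors, had 1 count in all at day 0 and 30.5, 1.1 and 13.4 CPM at day 8, a ratio of 423-fold (95% counting interval 75.4 to 16727). Nkx2-1, a homeobox factor of the ventral forebrain, also had 1 count at day 0 and had 39.6, 4.72 and 11.5 CPM at day 8, a ratio of 524-fold (95% counting interval 93.6 to 20717). In all 3 genes replicate 2 was the lowest at day 8, though still above every day 0 library. The receptor Ptch1 and the effector Gli1, which are transcribed in response to Shh, were not called. Ptch1 had 26.9, 23.6 and 23 CPM at day 0 and 86.1, 5.02 and 24.5 CPM at day 8 (adjusted p = 0.42). Gli1 had 6.39, 11.2 and 13.6 CPM at day 0 and 49.2, 2.81 and 19.1 CPM at day 8 (adjusted p = 0.2). Replicate 2 lay below all day 0 libraries in both, and replicate 1 far above them. Dbx1, a homeobox factor of the intermediate tube, had 1 count at day 0 and 63.3, 5.62 and 18.3 CPM at day 8, a ratio of 817-fold (95% counting interval 146 to 32304). Sim1, of the hypothalamus, rose to 4.94, 4.12 and 9.98 CPM (log2 fold change 4.29 ± 0.61). Foxa2, of the floor plate and of endoderm, was not lowest in replicate 2, with 39.7, 47 and 75.7 CPM at day 8 (log2 fold change 6.36 ± 0.56).

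**Figure D3:**
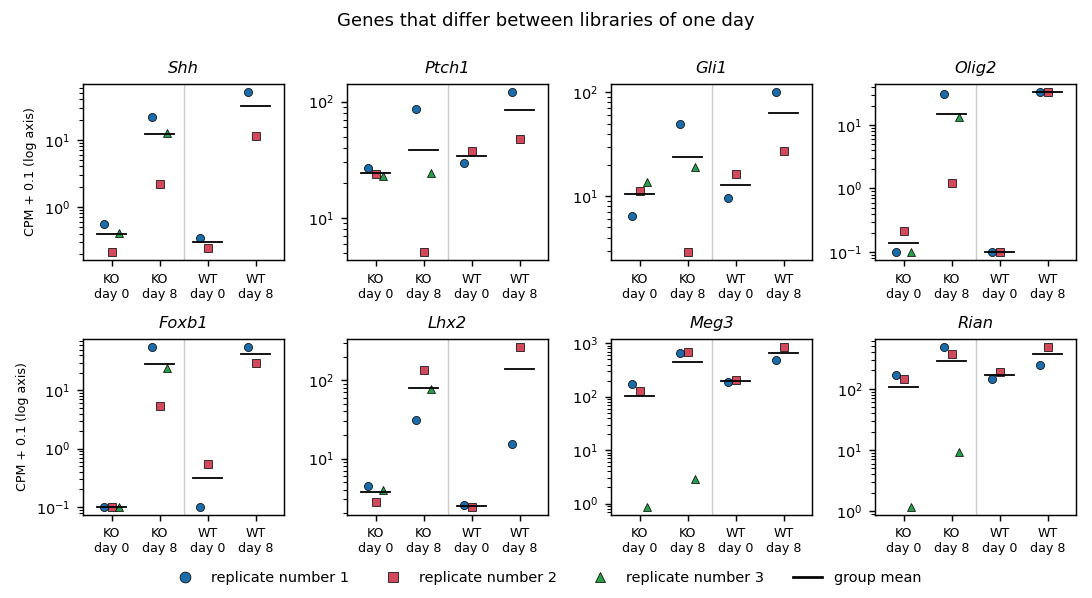
CPM plus 0.1 on a log axis in every library for 4 genes of Sonic hedgehog signalling and its ventral targets, the brain factors Foxb1 and Lhx2, and 2 imprinted RNAs. Points are libraries, coloured by replicate number, and bars are group means. KO replicate 2 was the lowest at day 8 for Shh, Ptch1, Gli1, Olig2 and Foxb1 and the highest for Lhx2, and KO replicate 3 was the lowest at both days for Meg3 and Rian.

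Within the POU family of transcription factors, 4 of 10 tested genes rose and 4 fell. Pou5f1 and Pou2f3 fell most, Pou2f3 with 14.4, 25.4 and 37.6 CPM at day 0 and 0.21, 0.602 and 0.0998 CPM at day 8 (log2 fold change -6.35 ± 0.55), and Pou4f2 (1.49, 1.92 and 1.84 CPM to 2 counts in all) and Pou2f1 (log2 fold change -0.87 ± 0.19) fell too. The genes that rose were the neural class III factors Pou3f3 (2.82, 3.27 and 2.15 to 86.5, 51.1 and 83 CPM, log2 fold change 4.76 ± 0.28) and Pou3f2 (2.08, 2.82 and 0.613 to 57.4, 24.7 and 74.9 CPM, log2 fold change 4.92 ± 0.62). Their relatives Pou3f1 (5.79, 3.27 and 6.21 to 31.8, 15.4 and 40.6 CPM, log2 fold change 2.51 ± 0.52) and Pou2f2 (log2 fold change 2.23 ± 0.51) rose as well. Pou4f1 and Pou6f1 were not called (adjusted p = 0.28 and 0.88). Of 15 SOX genes, 11 rose and 3 fell. The largest rise was Sox11, a factor of neuronal maturation, with 1.78, 1.69 and 3.68 CPM at day 0 and 362, 442 and 393 CPM at day 8 (log2 fold change 7.30 ± 0.30, adjusted p = 3.7e-08). Its relative Sox4 rose from 11.7, 20.7 and 19.5 CPM to 236, 372 and 287 CPM (log2 fold change 4.09 ± 0.27). The progenitor factors Sox3 and Sox9 rose by log2 fold changes of 4.63 ± 0.47 and 6.58 ± 0.45, and the endoderm factors Sox17 and Sox7 by 4.98 ± 0.46 and 3.54 ± 0.56. Sox15, a stem cell factor, fell from 25, 33.5 and 33.5 CPM to 3.05, 0.402 and 0.599 CPM (log2 fold change -4.51 ± 0.51). Sox18, an endothelial factor, fell from low levels (log2 fold change -3.2 ± 0.75), and Sox13 was not called (adjusted p = 0.7). In the ZIC family, Zic1 (log2 fold change 7.96 ± 0.39), Zic4 (3 counts in all to 27.4, 12 and 15.7 CPM) and Zic2 (log2 fold change 1.66 ± 0.34) rose. Zic5 was not called over all libraries (14.6, 10.4 and 9.35 CPM at day 0 and 14.8, 4.82 and 4.99 CPM at day 8, adjusted p = 0.39) but was called lower without day 8 replicate 1 (log2 fold change -1.19, adjusted p = 0.014).

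Enzymes of DNA methylation mostly fell, 6 of 8 against 1 rise (median -1.26). Dnmt3l, the cofactor of the de novo methyltransferases, had 36.8, 124 and 67.9 CPM at day 0 and 5.88, 2.11 and 1.1 CPM at day 8 (log2 fold change -4.66 ± 0.63, adjusted p = 6.9e-05). Tet1 and Tet2, dioxygenases that oxidise methylcytosine, fell from 379, 336 and 367 CPM to 46.8, 23.4 and 26.7 CPM (log2 fold change -3.48 ± 0.23) and from 323, 263 and 297 CPM to 26.3, 8.53 and 17.5 CPM (log2 fold change -4.08 ± 0.32). Tet3, the third of them, rose from 31.3, 37.2 and 38.8 CPM to 100.3, 65.2 and 87.5 CPM (log2 fold change 1.23 ± 0.17, adjusted p = 7.7e-05). The maintenance enzyme Dnmt1 and its partner Uhrf1 fell by less (log2 fold change -0.96 ± 0.19 and -1.56 ± 0.25). Dnmt3b was near the threshold (94, 136 and 103 CPM at day 0 and 87.3, 42.8 and 65.5 CPM at day 8, adjusted p = 0.04). It was not called when replicate 2 or 3 of either day was left out (adjusted p = 0.066 to 0.15). Dnmt3a was not called (43.2, 41.7 and 40.8 CPM at day 0 and 56.7, 46.1 and 53.1 CPM at day 8, adjusted p = 0.13). Germline genes, many of which are silenced by promoter methylation, fell in 10 of 14 cases with none higher (median -2.69). Among them was Dazl, an RNA-binding protein of germ cells (42.9, 15.1 and 10.3 to 2.63, 0.803 and 0.799 CPM, log2 fold change -4.0 ± 0.62, adjusted p = 2.0e-04). Another was Stk31, a kinase of spermatogenesis (15.6, 12.9 and 10.3 to 1.05, 0.703 and 0.699 CPM, log2 fold change -3.96 ± 0.31, adjusted p = 1.4e-06). Sycp3, of the synaptonemal complex, was not called (adjusted p = 0.9).

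Of 17 chromatin remodelling subunits of the BAF complex, 3 rose and 5 fell, with a median of -0.22. Smarca2 (BRM), the ATPase that is low in stem cells, had 4.9, 8.57 and 4.68 CPM at day 0 and 44.3, 50.4 and 57.8 CPM at day 8 (log2 fold change 3.07 ± 0.27, adjusted p = 2.9e-06). Smarce1 rose from 157, 142 and 134 CPM to 313, 289 and 311 CPM (log2 fold change 1.08 ± 0.11), and Smarcd2 fell from 132, 140.1 and 135 CPM to 49.7, 38.8 and 52.3 CPM (log2 fold change -1.54 ± 0.15).

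Each signalling list held both rises and falls. In the FGF list (8 higher and 6 lower of 16), genes known as targets or feedback inhibitors of ERK signalling were among those that fell. Examples were Etv5 (443, 444 and 434 to 36, 10.6 and 10.2 CPM, log2 fold change -4.54 ± 0.44) and Etv4 (98.5, 107 and 89 to 7.57, 5.32 and 5.79 CPM, log2 fold change -3.98 ± 0.17). Spry2 fell too (149.6, 166 and 155 to 27.6, 29.7 and 21 CPM, log2 fold change -2.59 ± 0.24). The receptor Fgfr3 rose from 1.19, 1.69 and 2.91 CPM to 25, 27.3 and 33.6 CPM (log2 fold change 3.80 ± 0.31, adjusted p = 1.6e-06). In the Wnt list (13 higher and 4 lower of 20), the ligand-like activator Rspo3 went from 2 counts in all at day 0 to 50.9, 61 and 65.8 CPM, a ratio of 850.4-fold (95% counting interval 235 to 7028). The nuclear effector Lef1 rose from 0.446, 0.789 and 0.843 CPM to 15.8, 9.94 and 12.7 CPM (log2 fold change 4.12 ± 0.36). The secreted inhibitor Notum (122, 77.1 and 73.2 to 4.52, 1.61 and 0.898 CPM, log2 fold change -5.28 ± 0.43) and the effector Tcf7 (log2 fold change -2.56 ± 0.24) fell. The target Axin2 was not called (38.8, 26.2 and 32.4 CPM at day 0 and 41, 20.6 and 30.5 CPM at day 8, adjusted p = 0.79). In the BMP list (5 higher and 4 lower of 13), the secreted antagonists Nog and Fst rose. Nog, noggin, had 2.08, 1.24 and 0.767 CPM at day 0 and 51.3, 124 and 121 CPM at day 8 (log2 fold change 6.28 ± 0.57, adjusted p = 3.6e-06). Fst, follistatin, had 13.4, 9.13 and 6.9 CPM at day 0 and 102, 511 and 477 CPM at day 8 (log2 fold change 5.24 ± 0.56, adjusted p = 1.3e-05). Replicate 1 was the lowest at day 8 in both. The target Id2 rose (2.08, 4.28 and 4.75 to 36.7, 60.8 and 50.9 CPM, log2 fold change 3.69 ± 0.36) and the inhibitor Smad7 fell (322, 287 and 301 to 13.7, 10.9 and 18.2 CPM, log2 fold change -4.41 ± 0.22). In the retinoic acid list (6 higher and 5 lower of 13), the binding protein Crabp2 had 0.446, 1.69 and 0.843 CPM at day 0 and 168, 485 and 254 CPM at day 8 (log2 fold change 8.20 ± 0.50, adjusted p = 2.9e-07). The uptake receptor Stra6 rose from 2.38, 1.24 and 1.3 CPM to 17.9, 18.8 and 27.8 CPM (log2 fold change 3.75 ± 0.32). The receptor Rarg (129.5, 138 and 126 to 8.83, 4.12 and 3.99 CPM, log2 fold change -4.54 ± 0.32) and the meiotic gene Stra8 (18.4, 20.6 and 17.9 to 0.105, 0.201 and 0.299 CPM, log2 fold change -6.45 ± 0.40) fell.

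Cell cycle genes fell more often than they rose, 16 against 6 of 32 (median -0.31), and the D-type cyclins Ccnd2 and Ccnd3 moved in opposite directions. Ccnd2, prominent in neural progenitors, had 1.78, 3.83 and 3.07 CPM at day 0 and 709.7, 427 and 499 CPM at day 8 (log2 fold change 7.52 ± 0.41, adjusted p = 1.4e-07). Ccnd3 fell from 406, 353 and 432 CPM to 114, 73.1 and 99.2 CPM (log2 fold change -2.06 ± 0.17, adjusted p = 1.8e-06). The S-phase cyclin Ccne1 fell from 227, 234 and 215 CPM to 66.2, 59.5 and 58 CPM (log2 fold change -1.88 ± 0.12, adjusted p = 4.4e-07). Cdk4, the partner of D-type cyclins, rose from 446, 434 and 419 CPM to 791, 1334 and 1042 CPM (log2 fold change 1.29 ± 0.17, adjusted p = 7.1e-05). Among 7 inhibitors of cyclin-dependent kinases 4 rose and 2 fell, with Cdkn1c (p57), which is imprinted, as the largest rise. It had 6.09, 6.09 and 6.82 CPM at day 0 and 113, 217 and 205 CPM at day 8 (log2 fold change 4.80 ± 0.29, adjusted p = 2.9e-07). Genes of glycolysis fell in 8 and rose in 3 of 18 cases (median -0.23). The glucose transporter Slc2a3 had 3530.2, 3503 and 3762 CPM at day 0 and 625, 159.7 and 228 CPM at day 8 (log2 fold change -3.41 ± 0.42, adjusted p = 3.2e-05). Hexokinase Hk2 fell from 510.1, 541 and 621 CPM to 139, 139 and 152 CPM (log2 fold change -1.96 ± 0.13, adjusted p = 4.4e-07). Tpi1, triosephosphate isomerase, rose from 409, 420.2 and 485 CPM to 1103, 648 and 537 CPM (log2 fold change 0.80 ± 0.23, adjusted p = 0.0093), with replicate 1 the highest at day 8. Immediate early and stress genes rose in 6 and fell in 8 of 17 cases (median -0.82), and p53 targets rose in 2 and fell in 5 of 12 (median -0.24).

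Imprinted genes rose in 10 and fell in 4 of 20 tested cases (median 1.67). Nnat, neuronatin, had 6.53, 15.9 and 12.2 CPM at day 0 and 785, 1153 and 1069 CPM at day 8 (log2 fold change 6.42 ± 0.37, adjusted p = 2.1e-07). Sgce rose from 13.1, 20.1 and 18 CPM to 114, 119.6 and 129 CPM (log2 fold change 2.82 ± 0.17), and Slc38a4, an amino acid transporter, fell from 189, 220.3 and 217 CPM to 34.9, 13 and 13.6 CPM (log2 fold change -3.35 ± 0.33). The long noncoding RNAs Meg3 and Rian lie in one imprinted cluster on chromosome 12 and are normally expressed from the maternal copy. Meg3 had 176, 128 and 0.767 CPM at day 0 and 645, 672 and 2.8 CPM at day 8 (adjusted p = 0.3). Rian had 168, 146 and 1.07 CPM at day 0 and 483, 372 and 9.28 CPM at day 8 (adjusted p = 0.41). Neither was called, but with the replicate number as a block both were called higher (log2 fold changes 2.10 and 1.74, adjusted p = 3.1e-05 and 3.9e-04). Replicates 1 and 2 of day 8 lay above all day 0 libraries in both genes, and replicate 3 was far below the others at both days. H19, a noncoding RNA of another imprinted cluster, had 4.6, 6.54 and 0.613 CPM at day 0 and 5.78, 7.33 and 0.399 CPM at day 8 (adjusted p = 0.8) and was also lowest in replicate 3 at both days. In WT cells Meg3 had 191 and 202 CPM at day 0 and 479 and 852 CPM at day 8 and H19 had 25.9 and 26.8 CPM at day 0 and 12.8 and 37.4 CPM at day 8.

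Among adhesion genes, E-cadherin fell and N-cadherin rose. Cdh1, E-cadherin, had 305, 346 and 334 CPM at day 0 and 24.5, 13.8 and 14.6 CPM at day 8 (log2 fold change -4.22 ± 0.27, adjusted p = 3.5e-07). Cdh2, N-cadherin, had 3.27, 5.3 and 5.06 CPM at day 0 and 144, 166 and 186 CPM at day 8 (log2 fold change 5.15 ± 0.24, adjusted p = 6.6e-08). The libraries of the days did not overlap in either gene. Cdh11, a cadherin of mesenchyme and neural cells, rose from 0, 0.451 and 0.23 CPM to 45.1, 72 and 57.6 CPM (log2 fold change 7.82 ± 0.43). In all, 5 of 15 cadherin and epithelial genes rose and 8 fell. Axon guidance genes rose in 24 and fell in 4 of 31 cases (median 2.37), among them the ligand Efnb3 (6.98, 9.02 and 9.12 to 67, 82 and 84.5 CPM, log2 fold change 3.2 ± 0.17). The receptor Epha4 fell (156, 169 and 179 to 33.7, 43.8 and 34.3 CPM, log2 fold change -2.17 ± 0.14).

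Markers of other cell types were examined next. Endoderm genes rose in 12 of 14 tested cases and none fell, with a median of 3.03, and their summed level was 55.6 to 75.6 CPM at day 0 and 509.6 to 1009.7 CPM at day 8. Sox17, a factor that defines endoderm, had 12, 6.88 and 4.98 CPM at day 0 and 124, 256 and 348 CPM at day 8 (log2 fold change 4.98 ± 0.46, adjusted p = 4.2e-06). Gata4, a zinc finger factor of extraembryonic endoderm and later of heart and gut, had 20, 16.7 and 15.6 CPM at day 0 and 126, 131 and 227 CPM at day 8 (log2 fold change 3.21 ± 0.26, adjusted p = 1.7e-06). Gata6, its relative with a similar domain of action, had 9.65, 23.2 and 12.4 CPM at day 0 and 64.7, 81.7 and 129.9 CPM at day 8 (log2 fold change 2.60 ± 0.36, adjusted p = 8.3e-05). Foxa2 rose from 0.594, 1.24 and 0.23 CPM to 39.7, 47 and 75.7 CPM (log2 fold change 6.36 ± 0.56, adjusted p = 2.8e-06). Dab2, an adaptor protein of visceral and parietal endoderm, rose from 9.06, 9.36 and 5.98 CPM to 52.3, 44.4 and 76.5 CPM (log2 fold change 2.84 ± 0.32, adjusted p = 1.8e-05). In all 5 genes every day 8 library lay above every day 0 library, and replicate 3 was the highest at day 8. Ttr, transthyretin, had 5 counts in all at day 0 and 6.83, 25.6 and 24.4 CPM at day 8 (log2 fold change 6.70 ± 0.78, adjusted p = 2.4e-05). Afp, the alpha-fetoprotein of mature visceral endoderm, stayed at 0.113 to 0.297 CPM at day 0 and 0.301 to 0.736 CPM at day 8 and was below the count minimum. Whether such cells contribute to the other changes was not tested.

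Most basement membrane components rose as well. This list of 9 genes was chosen after their values were seen, so its counts are a description: 7 rose and 2 fell, with a median of 3.0, and their summed level was 2994 to 3117 CPM at day 0 and 11522 to 18763 CPM at day 8. Col4a1, a chain of type IV collagen, had 127, 106 and 85.6 CPM at day 0 and 3101, 3202 and 5028 CPM at day 8 (log2 fold change 5.15 ± 0.38, adjusted p = 8.9e-07). Its partner chain Col4a2 had 70.4, 74.2 and 55.7 CPM at day 0 and 1614, 1755 and 2890.0 CPM at day 8 (log2 fold change 4.97 ± 0.38, adjusted p = 1.1e-06). Both were higher in every day 8 library than in any day 0 library. The laminin alpha chain Lama1 had 235, 182 and 188 CPM at day 0 and 1899, 1644 and 2716 CPM at day 8 (log2 fold change 3.37 ± 0.26, adjusted p = 1.2e-06). The laminin beta chain Lamb1 had 86.7, 105 and 104 CPM at day 0 and 1127, 1538 and 2033 CPM at day 8 (log2 fold change 3.99 ± 0.29, adjusted p = 8.5e-07). The laminin gamma chain Lamc1, already high in stem cells, had 663, 599 and 660.4 CPM at day 0 and 1487, 1034 and 1929.6 CPM at day 8 (log2 fold change 1.21 ± 0.23, adjusted p = 6.8e-04). Sparc, a collagen-binding protein, had 291, 348 and 307 CPM at day 0 and 1509.8, 2719.7 and 3361 CPM at day 8 (log2 fold change 3.0 ± 0.32, adjusted p = 1.3e-05). In these 6 genes the days did not overlap. Nid1, nidogen, was near the threshold (289, 212 and 261 CPM at day 0 and 558, 346 and 607 CPM at day 8, adjusted p = 0.032). It was not called when any KO library other than day 8 replicate 2 was left out (adjusted p = 0.054 to 0.13). Its relative Nid2 (log2 fold change -3.13 ± 0.31) and the proteoglycan Hspg2 (log2 fold change -2.83 ± 0.24) fell. In WT cells the summed level of the same 9 genes was 2334 to 2926 CPM at day 0 and 1586 to 3334 CPM at day 8.

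**Figure D4:**
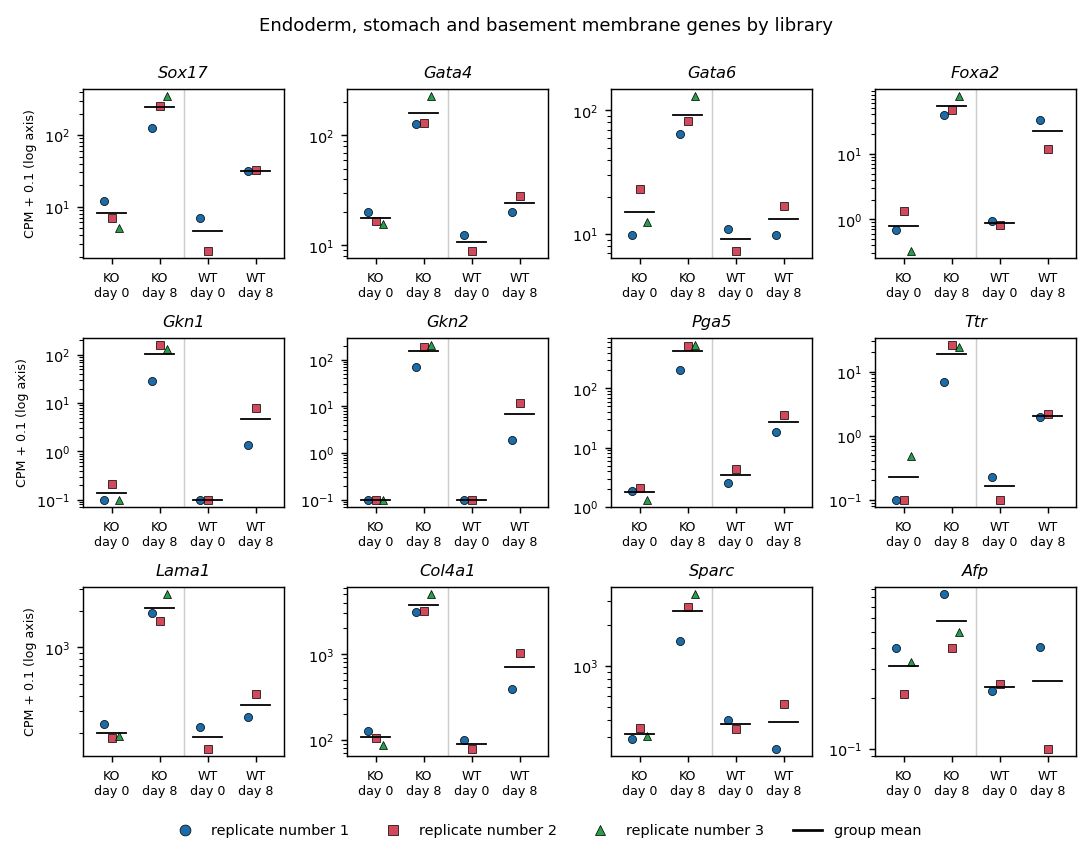
CPM plus 0.1 on a log axis in every library for endoderm, stomach and basement membrane genes, with Afp as a marker that stayed near 0. Points are libraries, coloured by replicate number, and bars are group means. Apart from Afp, the KO day 8 libraries lay above the KO day 0 libraries for each gene shown, and above the WT day 8 libraries.

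The gastrokine genes Gkn1 and Gkn2 stood among the largest rises. They encode secreted proteins of the gastric surface epithelium and are neighbours on chromosome 6 (87345653 to 87350915 and 87373365 to 87379494 in GRCm38.p6). Gkn2 was not counted in any KO day 0 library and had 69.3, 184 and 202 CPM at day 8, at least 1463-fold higher over the group. Gkn1 had 1 count at day 0 and 28.8, 158 and 129 CPM at day 8, a ratio of 3045-fold (95% counting interval 546 to 120315). Replicate 1 was the lowest at day 8 for both. The list of stomach genes was chosen from earlier results of these data. Only 5 of its 16 genes passed the count minimum, 3 of them higher and 1 lower. The summed level of the list, 110.0 to 355 CPM at day 8, was mostly Gkn1 and Gkn2. In WT cells Gkn1 had 1.23 and 7.77 CPM and Gkn2 1.84 and 11.5 CPM at day 8, with no counts at day 0. For both genes every KO day 8 library lay above the WT day 8 libraries. The difference in change was not called for either (adjusted p = 0.97 and 1). With at most 1 count at day 0 in either kind of cell, that test cannot settle whether the changes differ. Pga5, a pepsinogen that the list does not hold, rose from 1.78, 2.03 and 1.23 CPM to 203, 523 and 532 CPM (log2 fold change 8.0 ± 0.50, adjusted p = 3.2e-07).

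The promoters of the gastrokine genes are shown because both genes rose, as did Gata4 and Gata6 of the GATA family, although Gata2 fell. Whether these changes are linked was not tested. The windows are the 250 bases before the RefSeq start in GRCm38.p6, chr6:87350916-87351165 on the minus strand for Gkn1 and chr6:87373115-87373364 on the plus strand for Gkn2. The capitals mark the letters AGATAA, a motif of the kind that the GATA family is known to bind, and both strands were searched. Each window held 1 match, beginning 82 bases before the start in Gkn1 and 218 bases before it in Gkn2, and 9.99% of 32851 promoters held at least 1. Only AGATAA was searched, so other GATA-type letters in the windows, such as TGATAA, are not marked. The letters say nothing of binding.
Gkn1: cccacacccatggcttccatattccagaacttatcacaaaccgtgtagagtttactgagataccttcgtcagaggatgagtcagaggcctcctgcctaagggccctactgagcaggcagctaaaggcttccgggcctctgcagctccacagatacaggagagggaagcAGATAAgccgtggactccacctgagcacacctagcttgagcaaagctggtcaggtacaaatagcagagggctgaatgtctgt
Gkn2: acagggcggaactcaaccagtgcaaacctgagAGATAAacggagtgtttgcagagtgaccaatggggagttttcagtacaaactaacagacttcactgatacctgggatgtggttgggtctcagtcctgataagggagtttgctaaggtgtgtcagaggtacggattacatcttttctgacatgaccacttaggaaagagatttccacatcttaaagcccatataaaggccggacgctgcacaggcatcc

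Other lineages were less uniform. Neural crest and mesenchyme genes rose in 8 and fell in 3 of 15 cases, with summed levels of 234 to 271 CPM at day 0 and 198 to 316 CPM at day 8. The defining factor Sox10 was near 0 (0.20 to 0.703 CPM at day 8), and Twist1 stood at 3.71 to 6.76 CPM and 3.15 to 9.98 CPM. Prrx1 rose from 2 counts in all to 6.94, 9.14 and 4.89 CPM. Pdgfra, a receptor of mesenchyme, primitive endoderm and glial progenitors, had 5.79, 5.07 and 3.3 CPM at day 0 and 117, 111 and 184 CPM at day 8 (log2 fold change 4.90 ± 0.28, adjusted p = 1.8e-07). Snai1, a repressor of epithelial genes, rose from 6.98, 6.2 and 6.52 CPM to 24.9, 43.1 and 52.6 CPM (log2 fold change 2.61 ± 0.28). The homeobox factor Tlx2 (140.3, 113 and 125 to 0.21, 0.502 and 0.299 CPM, log2 fold change -8.48 ± 0.59) and the receptor Ngfr (73.2, 71.4 and 76.7 to 1.89, 2.81 and 5.29 CPM, log2 fold change -4.46 ± 0.30) fell. Streak and mesoderm genes rose in 3 and fell in 2 of 11 cases, with summed levels of 92.2 to 114 CPM and 152 to 275 CPM. The defining genes T and Tbx6 stood at 3.11 to 6.73 CPM and 0.898 to 1.2 CPM at day 8, and Gata4 was among those that rose. Tcf15, of paraxial mesoderm and primed stem cells, fell from 40.5, 56 and 66.4 CPM to 2.21, 1.91 and 2.1 CPM (log2 fold change -4.71 ± 0.25).

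Blood and vessel genes fell in 4 and rose in 1 of 9 cases, with summed levels of 139.8 to 154 CPM and 33.1 to 71 CPM. Pecam1, which stem cells express, fell from 126, 104 and 115 CPM to 5.78, 2.91 and 2.7 CPM (log2 fold change -4.92 ± 0.28). The endothelial cadherin Cdh5 rose from 0.149, 0.451 and 0.307 CPM to 15, 30.4 and 42.9 CPM (log2 fold change 6.49 ± 0.69, adjusted p = 1.2e-05). Of the defining blood genes, Hbb-bh1 had 1 count at each day, Tal1 did not pass the count minimum and Gata1 was at most 1.5 CPM at day 8. Muscle genes rose in 1 and fell in 2 of 9 cases, with summed levels of 53.2 to 67.8 CPM and 16 to 52.8 CPM. Myod1 and Myog were at or near 0 at both days, and Des, desmin, fell from 25.2, 34.9 and 31.9 CPM to 6.2, 1.91 and 2.7 CPM (log2 fold change -3.09 ± 0.36). Keratins and trophoblast genes rose in 4 and fell in 3 of 10 cases, with summed levels of 158 to 199 CPM and 171 to 499 CPM. Krt8, a simple epithelial keratin, had 109.6, 97.7 and 80.4 CPM at day 0 and 104, 344 and 327 CPM at day 8 (log2 fold change 1.43 ± 0.39, adjusted p = 0.0077). Replicate 1 of day 8 lay within the day 0 range, and the gene was not called without day 8 replicate 2 (adjusted p = 0.076). Glial genes rose in 6 and fell in 4 of 12 cases, with summed levels of 145 to 161 CPM and 203 to 287 CPM. The defining astrocyte genes Gfap and Aqp4 were at most 2.31 CPM at day 8, and Mbp, of myelin, stood at 10.6 to 12.9 CPM. The part of these cell types in the results above was not tested.

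Among abundant genes (average log2 CPM 3 or above) whose days did not overlap, the 12 largest fitted rises were Gkn2, Fezf1, Ptn, Fezf2, Gkn1, Foxb1, Lmo3, Insm1, Amer2, Nr2e1, Lrtm1 and Rspo3. Of these, 8 had no counts in any KO day 0 library. Ptn, the secreted growth factor pleiotrophin, had 2 counts in all at day 0 and 359, 589.8 and 403 CPM at day 8, a ratio of 6471-fold (95% counting interval 1791 to 53435). Foxb1, a forkhead factor of the mammillary region, reached 55.1, 5.32 and 24.6 CPM (at least 266-fold higher), and replicate 2 was the lowest. The LIM protein Lmo3 reached 20.5, 30.7 and 29.9 CPM (at least 259-fold higher) and Amer2, of the Wnt pathway, 22.1, 13.2 and 15.3 CPM (at least 159.9-fold higher). Lrtm1, a leucine-rich repeat protein, reached 16.4, 3.71 and 14.7 CPM (at least 110.1-fold higher). Gkn1, Gkn2, Fezf1, Ptn and Lmo3 lie on chromosome 6, which holds 651 (4.73%) of the tested genes. Of those 651 genes, 246 rose and 202 fell, where 34.0% of all tested genes rose and 31.9% fell.

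The 12 largest falls were Bhmt, Cdx1, Calcoco2, Inhbb, Laptm5, Tlx2, Bhmt2, Arl14epl, 2210409E12Rik, Slc52a3, Ddr2 and Gpa33. Bhmt and Bhmt2, neighbouring methyltransferase genes of homocysteine metabolism, fell together. Bhmt had 298, 150.1 and 142 CPM at day 0 and 1 count in all at day 8, a ratio of 5343-fold (95% counting interval 959 to 211082). Bhmt2 fell from 65.8, 43.1 and 40 CPM to 0.21, 0.10 and 0.0998 CPM (log2 fold change -8.37 ± 0.54). Calcoco2, an autophagy receptor, had 267, 257 and 220.1 CPM at day 0 and 0.315, 0.502 and 0.499 CPM at day 8 (log2 fold change -9.09 ± 0.32, adjusted p = 1.8e-08). Laptm5, a lysosomal membrane protein, had 149, 190.0 and 194 CPM at day 0 and 0.525, 0.301 and 0.399 CPM at day 8 (log2 fold change -8.72 ± 0.25, adjusted p = 6.2e-09). Inhbb, an activin subunit, fell from 56.4, 69.8 and 58.6 CPM to 3 counts in all, a ratio of 605-fold (95% counting interval 207 to 2938). Gpa33, a cell surface antigen, fell from 139.9, 132 and 122 CPM to 1.05, 0.201 and 0.20 CPM (log2 fold change -8.07 ± 0.35). Slc52a3, a riboflavin transporter, fell from 27.5, 23.2 and 23.5 CPM to 2 counts in all, a ratio of 359-fold (95% counting interval 98.9 to 2968). Ddr2, a collagen receptor, fell from 27.8, 5.64 and 8.51 CPM to 1 count in all, a ratio of 358-fold (95% counting interval 63.9 to 14191). The gene 2210409E12Rik fell from 31.5, 23.7 and 20.9 CPM to 2 counts in all, a ratio of 357-fold (95% counting interval 98.5 to 2956), and Arl14epl fell from 100, 90.8 and 91.2 CPM to 0.631, 0 and 0.20 CPM (log2 fold change -8.36 ± 0.39).

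Gene positions were used to ask whether the change from day 0 to day 8 was spread evenly over chromosomes, for the 13131 tested genes that had one. The median log2 fold change per chromosome ran from -0.19 on chromosome 11 to 0.55 on the X chromosome. The X chromosome had 233 rises and 96 falls, chromosome 13 a median of 0.37 and chromosome 3 a median of 0.34. The corresponding WT medians were 0.40, 0.18 and 0.22. The largest deviation of a KO library from the mean of its day in the median of a chromosome was 0.080. The KO libraries were also set against the WT libraries of the same day, as median differences in log2 CPM per chromosome. Only the 7840 genes with a chromosome and a mean log2 CPM of at least 4 were used for this. All 6 KO libraries were higher over chromosome 6, by 0.26 to 0.27 at day 0 and 0.36 to 0.46 at day 8. Over chromosome 14 they were higher by 0.43 to 0.44 and 0.35 to 0.51. They were also higher over chromosome 11, by 0.09 to 0.15 and 0.08 to 0.19. All 6 were higher over these 3 chromosomes and lower over 16 others. The lowest at day 0 were chromosome 8, with differences of -0.21 to -0.20 at day 0 and -0.11 to -0.08 at day 8, and the X chromosome. Over the X chromosome the same differences were -0.24 to -0.21 at day 0 and -0.09 to -0.05 at day 8.

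The same interval in WT cells called 4111 rises and 3824 falls, 57.7% of the genes tested. Of these, 3205 rose and 3104 fell in KO cells too, 41 rose in KO cells and fell in WT cells, and 51 did the reverse. The change itself was called different between KO and WT cells in 796 genes, 5.79% of those tested, with 312 higher (2.27%) and 484 lower (3.52%) in KO cells. Of the 484, 392 rose in WT cells and 210 rose in both. This count rests on few libraries: without WT day 0 replicate 2 it was 3 higher and 15 lower, and without KO day 8 replicate 1 it was 1747 and 1858. Scaling by total counts alone gave 192 higher and 532 lower (26.5% higher, against 39.2%) and moved the median difference of all genes from -0.06 to -0.24. The excess of lower genes was not kept with edgeR's own filter (439 higher and 404 lower), with a minimum of 20 counts (468 and 460) or without KO day 8 replicate 2 (675 and 559). Of the genes named below as different, Miat and Serpinb6c kept their call in all 17 alternative analyses, and each of the others lost it in at least 1.

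**Figure D5:**
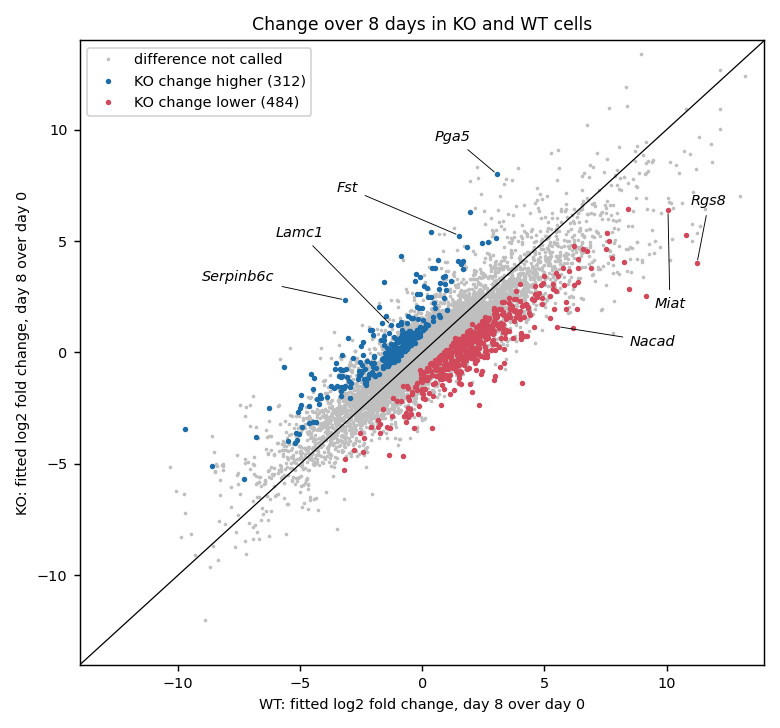
Fitted log2 fold change from day 0 to day 8 of every tested gene in WT cells (x axis) and KO cells (y axis), with genes whose change differed in colour and the line of equal change in black. The 484 genes with a lower log2 fold change in KO cells lie mostly where WT cells rose, and the fitted value of a gene with no counts on one side, such as Rgs8 in WT cells, depends on the fit's prior.

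Neuronal genes were among those with a lower log2 fold change in KO cells than in WT cells. Of the young neuron list this held for 7 of 27 and the reverse for none, and of the neuronal RNA-binding list for 4 of 20 and none. The summed level of the young neuron list at day 8 was 2037 to 3418 CPM in WT cells against 596 to 1070.4 CPM in KO cells. Lower sums in KO cells at day 8 were not confined to neuron genes. The neural progenitor list had 4508 to 5109 CPM in WT cells and 2644 to 3524 CPM in KO cells. The Notch and proneural list had 1891 to 1911 CPM and 1007 to 1065 CPM. The difference in change was called for 0 of 22 progenitor genes and for 2 of 26 Notch and proneural genes, both lower in KO cells. Miat, a long noncoding RNA of neurons, had 1.63, 2.03 and 2.22 CPM at day 0 and 173, 147 and 185 CPM at day 8 in KO cells. In WT cells it had 0.734 and 0.869 CPM at day 0 and 926 and 799 CPM at day 8, a difference in log2 fold change of -3.67 ± 0.34, adjusted p = 0.0013. The splicing factor Celf3 reached 12.3, 19.2 and 22.4 CPM in KO cells and 79.6 and 71.7 CPM in WT cells at day 8 (difference -3.53 ± 0.69, adjusted p = 0.021). Dpysl3 differed by -2.12 ± 0.40, adjusted p = 0.019. Mapt, with a log2 fold change of -2.74 ± 0.34 in KO cells and -0.17 ± 0.38 in WT cells, differed by -2.58 ± 0.51, adjusted p = 0.022. Nacad had 4.41, 6.73 and 9.38 CPM in KO cells at day 8 against 35.4 and 26.6 CPM in WT cells (difference -4.35 ± 0.58, adjusted p = 0.0082). Prr36 had 37.6, 23.2 and 21.2 CPM against 61.8 and 81.3 CPM (difference -3.62 ± 0.51, adjusted p = 0.0082). Tubb4a, another neuronal tubulin, had 10.4, 4.52 and 12.2 CPM against 48 and 40.8 CPM (difference -3.93 ± 0.70, adjusted p = 0.016). For Celf3, Nacad, Prr36 and Tubb4a the day 8 levels differed by less than the fitted difference in log2 fold change. Part of that difference therefore lay at day 0, where their fitted levels were higher in KO cells than in WT cells. Hes5 did not pass (0 and 0 CPM at day 0 and 127 and 106 CPM at day 8 in WT cells, adjusted p = 0.098 for the difference). Tubb3 did not pass either (72.6 and 101 CPM at day 0 and 744 and 547 CPM at day 8 in WT cells, adjusted p = 0.31). Notch1 did (-1.51 ± 0.28, adjusted p = 0.019), with 136 and 170.1 CPM in WT cells at day 8 against 63.3, 39.6 and 56.7 CPM in KO cells.

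On the other side, 5 of 18 naive genes fell less in KO cells. Klf4 had 6.92 and 15 CPM in WT cells at day 8 against 48.9, 96.6 and 133 CPM in KO cells (difference 2.39 ± 0.53, adjusted p = 0.029). Others were Klf5 (1.49 ± 0.33, adjusted p = 0.029) and Tbx3 (1.61 ± 0.34, adjusted p = 0.026). Of the 9 basement membrane genes, chosen after their values were seen, 7 differed upward. Lamc1, for example, fell in WT cells to 212 and 325 CPM and rose in KO cells (difference 2.48 ± 0.36, adjusted p = 0.0082). Endoderm genes rose more in KO cells in 2 of 14 cases, Gata4 (2.03 ± 0.41, adjusted p = 0.023) and Dab2 (2.14 ± 0.51, adjusted p = 0.036). Sox17 did not pass for the difference (adjusted p = 0.087), although its KO day 8 libraries all lay above its WT day 8 libraries (31 and 32 CPM). Pga5 reached 18.4 and 36.1 CPM in WT cells at day 8 (difference 4.93 ± 0.77, adjusted p = 0.011) and Fst 30.1 and 48.7 CPM (difference 3.72 ± 0.81, adjusted p = 0.029). The phospholipase-like Plbd1 had 41.4, 101 and 116 CPM in KO cells at day 8 against 2.77 and 8.8 CPM in WT cells (difference 4.33 ± 0.93, adjusted p = 0.028). The homeobox gene Rhox5 had 27.6, 66.1 and 58.1 CPM against 4.61 and 8.34 CPM (difference 3.81 ± 0.60, adjusted p = 0.012), and the serpin Serpinb6c 8.93, 22.5 and 25.6 CPM against 0.769 and 1.03 CPM (difference 5.50 ± 0.70, adjusted p = 0.0082). These 5 genes were among the largest positive differences.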

How the data were processed

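PolyA RNA of E14/TG2A cells was sequenced in 10 libraries, 3 of KO cells and 2 of WT cells at each of day 0 and day 8. The authors deposited whole-number counts per gene in 1 table. Tools listed in the submitters' processing notes were CASAVA 1.8, TopHat2 2.0.9 and BWA, with the build mm10. The name of the deposited counts holds the words dexseq and refseq. The rule for assigning reads to genes, the annotation release and the strand setting were not given in the sources used here. Reads of overlapping, antisense or near-identical genes may therefore be shared. All 10 libraries entered 1 edgeR quasi-likelihood fit (edgeR 4.0.16, R 4.3.3, robust, TMM factors 0.909 to 1.09) with Benjamini-Hochberg adjustment over 13752 genes. The SE is the log2 fold change over the square root of F. CPM were computed from the deposited counts with TMM-scaled totals. A fold against no counts uses a floor of 3 counts over the group, and a ratio to 1 to 3 counts has an exact 95% counting interval. Both cover counting error only. List medians were the same with such genes at their bound. The gene test was run on simulated counts that gave every gene and group the same spread, so this does not measure its error rate in these data. Totals of 5.96 to 13.2 M limit what can be said of genes with few counts.

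Chi-square per degree of freedom between replicates was 3.99 to 69.8, so none was a copy of another. Same-numbered KO libraries deviated together with correlations of -0.04, 0.04 and 0.06, so the numbers were not treated as pairs, although replicate 3 was low in Meg3 and Rian at both days. Members and the 38 gene lists were chosen with earlier results of these data known. Genes were named by rule: the 12 largest rises and 12 largest falls (average log2 CPM of at least 3, no overlap), the 8 largest differences from WT each way, every tested POU, SOX, ZIC and DNA methylation gene, and from each list the 4 called members with the smallest p, 2 of the minority direction and 2 not called. Defining cell type markers were fixed with the lists. Outside this rule, Nanog, Hes5, Lhx2, Shh, Ptch1, Gli1, Rian, Gata6, Ttr and the basement membrane genes were chosen after their values were seen. Results for some genes that the rule names are not reported here. Alternatives were other scalings, filters, DESeq2 1.42.0, a replicate block, the KO libraries by themselves, and omission of each library in turn. Promoter sequences and positions came from RefSeq tables of GRCm38.p6.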

Additional observations from a re-analysis of the deposited data

Results flagged for a closer look

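The change from day 0 to day 8 differed between KO and WT cells in the genes below, by edgeR's test of the difference itself. Each value is the log2 fold change in KO cells minus that in WT cells, with its Benjamini-Hochberg adjusted p. No explanation was tested for any of them.

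Some genes of neurons, axons and neuronal RNA processing had a lower log2 fold change in KO cells. Of these, Epha4 had a larger fall in KO cells than in WT cells. Mapt fell in KO cells and changed little in WT cells, and Slc17a7 fell in KO cells and rose in WT cells. The genes included Miat (-3.67, adjusted p = 0.0013), Celf3 (-3.53, adjusted p = 0.021), Nova2 (-2.36, adjusted p = 0.033), Dpysl3 (-2.12, adjusted p = 0.019) and Mapt (-2.58, adjusted p = 0.022). The others were Nacad (-4.35, adjusted p = 0.0082), Prr36 (-3.62, adjusted p = 0.0082), Tubb4a (-3.93, adjusted p = 0.016), Slc17a7 (-4.67, adjusted p = 0.026) and Epha4 (-1.13, adjusted p = 0.021).

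Some regulators and receptors also had a lower log2 fold change in KO cells. The genes included Notch1 (-1.51, adjusted p = 0.019), Fgfr3 (-2.57, adjusted p = 0.028), Ngfr (-2.04, adjusted p = 0.029) and Tet3 (-1.43, adjusted p = 0.02). The others were Pou6f1 (-1.95, adjusted p = 0.036), Pbx3 (-1.01, adjusted p = 0.037) and Nnat (-1.99, adjusted p = 0.0499).

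Some naive and other stem cell genes fell less in KO cells. The difference was called for 5 of 18 naive genes and for 0 of 21 core and epiblast genes. The genes included Klf4 (2.39, adjusted p = 0.029) and Klf5 (1.49, adjusted p = 0.029). The others were Tbx3 (1.61, adjusted p = 0.026) and Etv4 (1.53, adjusted p = 0.021).

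Basement membrane genes had a higher log2 fold change in KO cells. The genes included Lama1 (2.51, adjusted p = 0.01), Lamb1 (2.39, adjusted p = 0.016), Lamc1 (2.48, adjusted p = 0.0082) and Col4a1 (2.16, adjusted p = 0.036). The others were Col4a2 (2.28, adjusted p = 0.032), Sparc (2.94, adjusted p = 0.013) and Nid1 (3.13, adjusted p = 0.019).

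Some endoderm, mesenchyme and other late genes also had a higher log2 fold change in KO cells. The genes included Gata4 (2.03, adjusted p = 0.023), Dab2 (2.14, adjusted p = 0.036), Pdgfra (2.47, adjusted p = 0.014), Snai1 (2.84, adjusted p = 0.013) and Fst (3.72, adjusted p = 0.029). The others were Pga5 (4.93, adjusted p = 0.011), Plbd1 (4.33, adjusted p = 0.028), Rhox5 (3.81, adjusted p = 0.012) and Serpinb6c (5.50, adjusted p = 0.0082).

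Rgs8, a regulator of G protein signalling, had no counts in WT cells at day 0, so its fitted difference of -7.24 (adjusted p = 0.02) depends on the prior of the fit and is no bound.

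Hoxc13 had no counts in WT cells at day 8, so its fitted difference of 6.26 (adjusted p = 0.04) depends on that prior too. It fell at least 60.7-fold in WT cells, and in KO cells its log2 fold change was -3.44.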

How the results depend on the processing

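The change from day 0 to day 8 in KO cells kept its counts within 1.5 times under all 14 alternatives, and leaving out single KO libraries gave 4099 to 4917 rises and 3839 to 4677 falls. No gene called in both the reported analysis and an alternative changed sign. Of 190 named genes in KO cells, recomputed 2654 times, the side of the threshold was lost 17 times and gained 3 times. The losses were in Dnmt3b, Nid1, Krt8, Jag2 and Stmn2. With the replicate block, 4374 genes rose and 4267 fell, and Meg3 and Rian were called higher (log2 fold changes 2.10 and 1.74). Not every KO library correlated best with its own number. Of 1092 recomputed list counts 49 moved by over 1.5 times, mostly in short lists, and the causes were not tested.

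The difference between KO and WT cells depended on the analysis, and the cause was not tested. Its 312 higher and 484 lower genes became 875 and 919 with DESeq2, 192 and 532 with total counts alone, 170 and 333 with the replicate block, 439 and 404 with edgeR's own filter, 468 and 460 with a minimum of 20 counts, and 395 and 455 with no filter. Leaving out single libraries gave 3 to 1747 higher and 15 to 1858 lower genes. Without WT replicate 1 the counts were 14 and 54 for day 0 and 16 and 65 for day 8, and without WT day 8 replicate 2 they were 97 and 219. Without KO day 0 replicates 1, 2 and 3 they were 128 and 266, 53 and 148, and 34 and 89. Without KO day 8 replicates 2 and 3 they were 675 and 559, and 114 and 224. Of 662 recomputed differences of named genes, 202 lost their call. The chromosome 6 median of 0.13 in KO cells became 0.17 with total counts alone and 0.081 with no filter, and the chromosome 13 median of 0.37 became 0.32 to 0.40 when single KO libraries were left out. Day 0 levels near 0 limit folds, which are bounds or carry counting intervals.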
